A study of Mus musculus with 8 samples.

Results

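The genes described here encode the nuclear pore and the machinery that carries proteins and RNA through it, and their levels were compared between whole back skin of Med1 KO mice and control mice. Members were the array probes whose symbol in the platform annotation begins with Nup followed by a digit or l, Kpna, Kpnb, Xpo, Ipo followed by a digit, Tnpo or Ranbp, together with those of Ran, Rangap1, Rae1, Seh1l and Tpr. The rule used names only and no measured value, but the members were chosen with earlier results of these data known. It found 71 probes of 48 genes, among 25697 probes of 16593 named genes on the array, and Tpr had no probe.

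The KO mice carried MED1 fl/fl alleles and Cre recombinase driven by the keratin 14 (K14) promoter, and the control mice, called WT in the labels, carried MED1 fl/fl alleles and, per the study's methods, were littermates without Cre. There were 4 KO and 4 control mice, all C57BL6 and 10 weeks old, and RNA of each mouse went on 1 Illumina bead array. The K14 promoter acts in keratinocytes of the epidermis and hair follicle, so fibroblasts, muscle, vessels and immune cells in whole skin kept Med1. Because the tissue is a mixture, fewer cells of a type and less RNA per cell cannot be told apart in these data.

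The nuclear pore is a ring-shaped assembly of nucleoporins set into the nuclear envelope. Stacked scaffold rings surround a central channel that is filled with disordered phenylalanine-glycine (FG) repeats, and filaments extend from both faces. Importins and exportins, together called karyopherins, carry cargo through these repeats. The small GTPase Ran sets the direction: RanGTP, which is abundant in the nucleus, releases cargo from importins and is needed for exportins to bind theirs, and it is hydrolysed to RanGDP in the cytoplasm. In dividing cells the pore is taken apart and rebuilt at each mitosis, and RanGTP around the chromosomes guides the assembly of the spindle.

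Signals are given on a log2 scale after background correction and quantile normalization, and changes are KO minus control, each followed by its standard error (SE). A probe was tested when it was above background (detection p below 0.05) on at least 4 of the 8 arrays, and called when its p-value, adjusted by the Benjamini-Hochberg method over all 15120 tested probes, was below 0.05. For a gene with more than 1 tested probe, the one with the highest mean signal over all mice represents the gene. Signals of different probes are not comparable as levels, so every comparison is of 1 probe between mice.

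The arrays had median raw signals of 152.2 to 193.6 and detected 14593 to 15149 probes each. Arrays of 1 genotype correlated at r = 0.991 to 0.993 across probes and arrays of different genotype at 0.908 to 0.916. Med1, the targeted gene, gave 8.26, 7.80, 8.39 and 8.45 in the KO mice and 9.05, 8.99, 8.92 and 9.10 in the control mice at its brightest probe (change −0.79 ± 0.14, adjusted p = 0.000649). Where this probe lies relative to the floxed exons was not analysed here. For KO mice of this line and age, the paper describes an abnormal shift to anagen, the growth phase of the hair cycle. It describes control skin as in telogen, the resting phase. The labels of the mice used here give no hair cycle stage, so genotype and stage cannot be told apart in this comparison. The genotypes also differed widely in cell type and cell cycle markers. All 16 tested proliferation genes were higher, with summed signals of 16600 to 16900 in KO and 5760 to 5850 in control mice, while Bub1 and Ccna2 were detected on no array. All 13 tested hair shaft and inner root sheath genes were higher, with sums of 187000 to 195000 in KO and 888 to 2570 in control mice. Krt25 was detected on no array. Within the control group, mice 1 and 3 had hair sums of 2570 and 2410, and mice 2 and 4 had 888 and 964. All 12 skeletal muscle genes (113000 to 118000 in KO and 265000 to 271000 in control mice) and all 8 fibroblast genes (56400 to 64200 in KO and 91500 to 98400 in control mice) were lower. So were 7 of 8 endothelial and all 5 tested macrophage genes, while all 6 melanocyte genes were higher. Other lists were mixed. Of 7 basal keratinocyte genes, 1 was higher and 4 were lower. Of 6 tested suprabasal keratinocyte genes, 2 were higher and 2 lower, and of 4 tested adipocyte genes, 1 was higher and 2 lower. The part of these markers, or of hair cycle stage, in the changes of pore and transport genes was not tested.

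Genes of the pore and of the Ran cycle were mostly higher in KO skin, and few were lower. Of 48 genes on the array, 38 had a tested probe, and 22 of these were higher and 3 were lower, which is 57.9% and 7.89% of those tested. Over all 10350 genes tested in the same way, 29.4% were called higher and 34.4% lower, 63.8% in all, so a call in itself was common in this comparison. The median change was 0.35 over the 38 genes and −0.04 over all genes tested. At the level of probes, 28 of 52 tested members were higher and 3 were lower, against 30.7% and 32% of all tested probes (62.7% in all), and 29 had groups that did not overlap, against 58% of all tested probes. The changes of genes ranged between −0.84 for Ipo13 and 1.96 for Kpna2, 5 genes had fitted increases of 2-fold or more (Kpna2, Ranbp1, Nup210, Xpo4 and Rangap1), and 0 fell by as much. For the brightest probe of Xpo4 the control level was below background, so only the bound given with the exportins holds. This probe could be tested only because it was detected in the KO mice. Without Xpo4, 21 of 37 genes were higher (56.8%, median 0.33). When detection was required on all 8 arrays, which also drops Kpna2, 20 of 36 were higher and 3 lower.

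The groups did not overlap for 25 of the 38 genes, which were 20 of the 22 higher genes, the 3 lower genes, and Nup88 and Nup98, which did not pass the test. Over all genes tested, 60.1% did not overlap. The shift was alike in every KO mouse: relative to the control mean of each gene, the median over the 38 genes was 0.36, 0.33, 0.34 and 0.41 in the KO mice and 0.00, −0.02, −0.02 and 0.02 in the control mice. Between 30 and 33 genes lay above their control mean in each KO mouse, and between 17 and 22 in each control mouse. The control values are centred by the calculation, since the control mean was subtracted, and are not an independent reference. The genes without a call had changes between −0.19 and 0.24, with adjusted p between 0.0778 and 0.721.

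**Figure D1:**
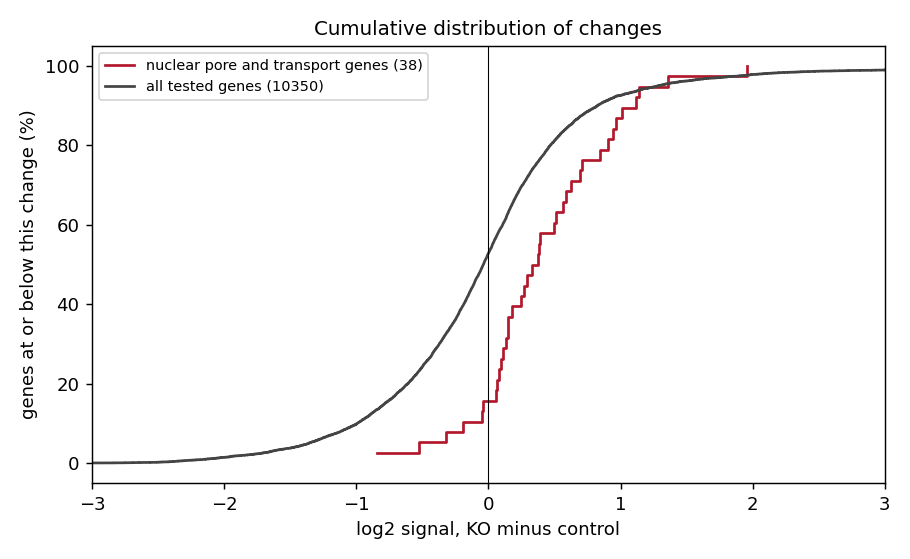
Cumulative share of genes (y axis, %) against the log2 change, KO minus control (x axis), for the 38 pore and transport genes and for all 10350 genes tested. The curve of the pore and transport genes lies to the right of the curve of all genes over most of its length, with medians of 0.35 and −0.04.

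The calls were spread unevenly over the roles. Of 19 tested pore genes, 14 were higher and 0 were lower (median 0.38). Within the pore, the scaffold, membrane and channel held 12 higher genes of 13 tested (median 0.56), whereas the cytoplasmic face held 1 of 5 (median 0.14). The count at the cytoplasmic face depended on the test, since Nup98 and Nupl2 passed with the methods' t-test. The carriers were divided, with 6 higher, 3 lower and 4 without a call among 13 tested importins and exportins (median 0.24). Of Ran, Rangap1 and the genes named Ranbp other than the nucleoporin Ranbp2, 2 of 6 tested were higher. Over all tested genes, 29.4% were called higher and 34.4% lower, 63.8% in all, and several of these groups hold few genes. The differences between these role groups were not tested.

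**Figure D2:**
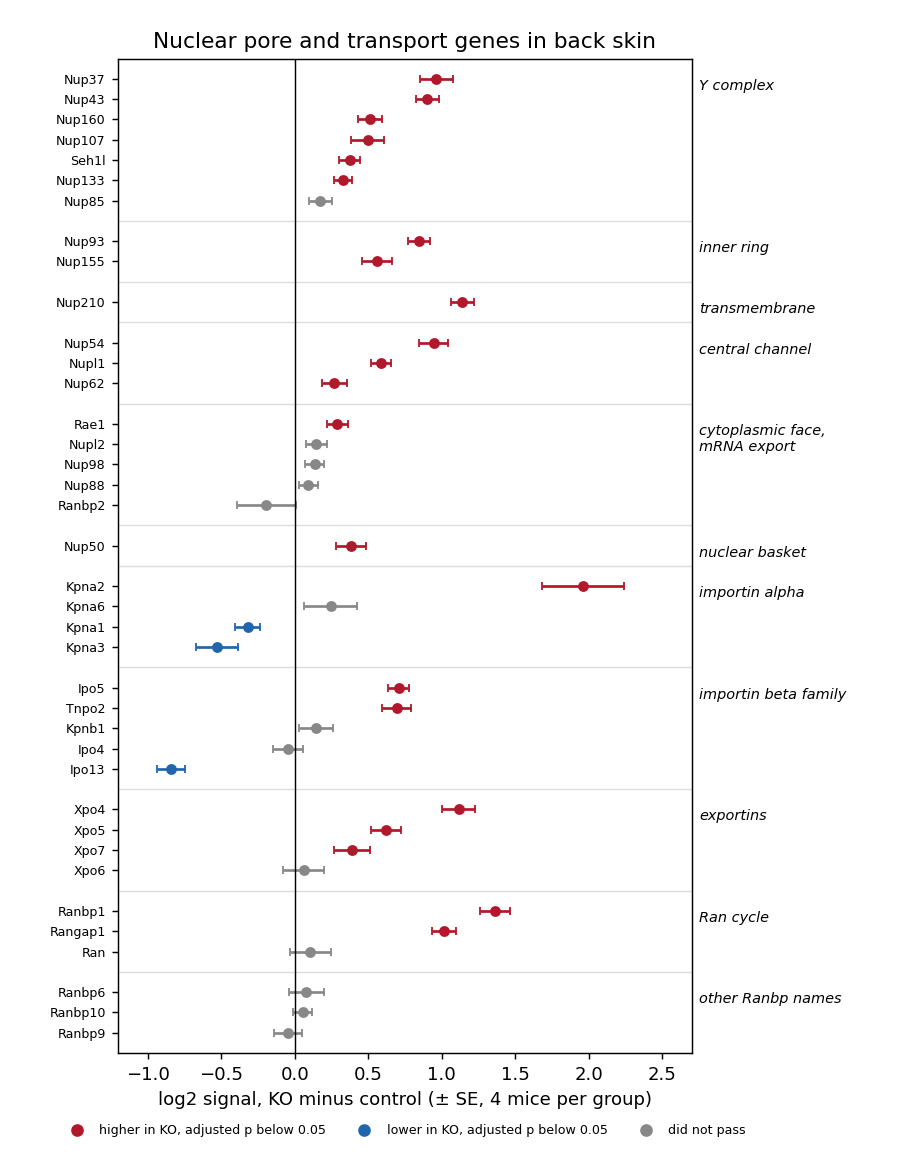
Log2 change, KO minus control (x axis), of the brightest tested probe of each of the 38 genes, grouped by role in the pore or in transport; bars are the SE of the fit, with 4 mice per genotype. Scaffold, ring, membrane and channel genes lie to the right of 0, and the 3 called decreases, Kpna1, Kpna3 and Ipo13, are all carriers; the point of Xpo4 is the fitted value, for which only a bound of at least 1.76-fold holds.

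Promoter sequences are shown for 5 genes that span the range of responses: Ranbp1 and Kpna2, which had the largest fitted increases in background-corrected values, Nup107, a scaffold gene with a smaller one, Ipo13, which had the largest decrease, and Ran, which did not pass the test. Each window holds 300 bases, 250 before and 50 after the RefSeq gene start (GRCm38.p6), printed 5′ to 3′ on the gene's strand. Capitals mark matches, on either strand, to the E-box CACGTG, to the NFY motif CCAAT, to GCGCATGC, the core of the palindromic NRF1 motif, or to the ETS motif CCGGAAG, and the TATA box TATAAA was searched as well. Both strands of a full NRF1 palindrome match over shared bases and are counted as 1 site here, and none of the different motifs overlapped in these windows. The windows lie at chr16:18248645-18248944 (Ranbp1), chr11:106999476-106999775 (Kpna2), chr10:117792656-117792955 (Nup107) and chr4:117914950-117915249 (Ipo13), all on the minus strand, and at chr5:129019906-129020205 on the plus strand (Ran).
Ranbp1: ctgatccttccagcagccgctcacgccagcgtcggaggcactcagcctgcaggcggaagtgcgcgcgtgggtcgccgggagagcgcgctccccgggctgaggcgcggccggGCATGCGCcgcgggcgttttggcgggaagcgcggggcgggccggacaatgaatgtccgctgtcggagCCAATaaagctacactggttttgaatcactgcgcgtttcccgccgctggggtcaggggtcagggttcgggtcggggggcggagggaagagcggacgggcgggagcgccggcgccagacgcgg
Kpna2: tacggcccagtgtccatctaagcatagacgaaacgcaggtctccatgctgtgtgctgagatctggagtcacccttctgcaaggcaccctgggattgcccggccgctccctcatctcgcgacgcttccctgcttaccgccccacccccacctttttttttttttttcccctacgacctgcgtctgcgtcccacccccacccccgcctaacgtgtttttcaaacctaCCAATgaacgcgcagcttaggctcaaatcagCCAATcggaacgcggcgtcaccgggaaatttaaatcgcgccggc
Nup107: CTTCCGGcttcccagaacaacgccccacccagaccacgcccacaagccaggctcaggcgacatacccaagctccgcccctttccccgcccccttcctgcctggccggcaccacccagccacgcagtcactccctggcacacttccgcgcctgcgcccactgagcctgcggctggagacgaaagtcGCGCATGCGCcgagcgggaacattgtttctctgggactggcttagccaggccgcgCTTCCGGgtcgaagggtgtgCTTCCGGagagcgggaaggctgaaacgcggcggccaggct
Ipo13: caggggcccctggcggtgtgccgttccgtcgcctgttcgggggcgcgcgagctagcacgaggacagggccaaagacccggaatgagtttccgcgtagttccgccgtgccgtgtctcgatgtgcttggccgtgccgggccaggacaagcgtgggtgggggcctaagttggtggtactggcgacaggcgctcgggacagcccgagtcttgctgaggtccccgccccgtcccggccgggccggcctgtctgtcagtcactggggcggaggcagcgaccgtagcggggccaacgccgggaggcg
Ran: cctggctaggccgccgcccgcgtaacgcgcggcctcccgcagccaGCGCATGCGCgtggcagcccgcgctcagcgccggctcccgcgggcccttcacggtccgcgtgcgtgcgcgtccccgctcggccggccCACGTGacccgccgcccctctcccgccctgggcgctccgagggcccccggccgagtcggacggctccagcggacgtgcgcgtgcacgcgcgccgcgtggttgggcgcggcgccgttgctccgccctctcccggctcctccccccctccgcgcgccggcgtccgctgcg

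The 5 windows were rich in G and C, with 72% for Ranbp1, 57.7% for Kpna2, 68% for Nup107, 71.3% for Ipo13 and 82% for Ran. Ranbp1 held 1 NFY motif and 1 NRF1 core, and Kpna2 held 2 NFY motifs. Nup107 held 1 NRF1 palindrome and 3 ETS motifs, and Ran held 1 E-box and 1 NRF1 palindrome, while the window of Ipo13 matched none of the motifs. Among these 5 windows, genes that rose and a gene without a call both carried the NRF1 core. Over all member windows, it was in 6 of 22 windows of higher genes (27.3%). It was in 1 of 11 windows of genes without a call (9.09%), which was that of Ran. This difference was not tested.

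In all, 45 windows were found for 39 of the 48 genes. Their median G and C content was 64.3%, against 52.7% over 32851 windows of all genes, and their median number of CpG dinucleotides was 27, against 7. The NRF1 core was in 15.6% of member windows (those of Nup62, Nup107, Nupl1, Nup50, Xpo5, Ranbp1 and Ran) and 2.71% of all windows. The E-box was in 17.8% of member windows and 7.15% of all windows, the ETS motif in 20% and 8.86%, the NFY motif in 44.4% and 37.4%, and the TATA box in 11.1% and 13.6%. Because CpG content alone changes these shares, windows with at least 20 CpG were also compared. Among those, the NRF1 core was in 18.2% of 33 member windows and 6.22% of 8701 windows of all genes, the E-box in 15.2% of member windows and 11.6% of those of all genes, the ETS motif in 18.2% and 19.6%, the NFY motif in 45.5% and 32.9%, and the TATA box in 6.06% and 3.67%. A match is a description of the letters and not of binding.

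Rangap1 and Ranbp1 rose, and Ran itself did not pass the test. Rangap1, the GTPase-activating protein that turns RanGTP into RanGDP at the cytoplasmic side of the pore, gave 12.81, 12.77, 12.77 and 12.92 in the KO mice and 11.66, 11.74, 11.97 and 11.83 in the control mice. Ranbp1, which binds RanGTP and assists RanGAP in releasing it from karyopherins, gave 11.70, 11.62, 11.74 and 11.60 in the KO mice and 10.11, 10.16, 10.55 and 10.39 in the control mice. Every KO mouse was well above every control mouse for both genes, with a gap wider than the spread within either group. Rangap1 rose by 1.01 ± 0.08 (2.02-fold, adjusted p = 4.68e-06) and Ranbp1 by 1.36 ± 0.10 (2.57-fold, adjusted p = 2.96e-06). Ran gave 7.90, 8.35, 8.24 and 7.95 in the KO mice and 8.11, 8.22, 7.98 and 7.71 in the control mice, so the groups overlapped. Its change was 0.11 ± 0.14 (adjusted p = 0.522), with a 95% confidence interval of −0.20 to 0.42.

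Rcc1, the chromatin-bound exchange factor that loads Ran with GTP in the nucleus, falls outside the naming rule and is given because it completes the cycle. It rose by 1.50 ± 0.15 (adjusted p = 1.40e-05), whereas Rangrf, a Ran-binding factor, changed by −0.13 (adjusted p = 0.136) and Rcc2, a relative of Rcc1, by 0.19 (adjusted p = 0.476). Among the Ran-binding proteins with other functions, none of the 3 tested passed. Ranbp9 (−0.05 ± 0.10) and Ranbp10 (0.06 ± 0.06) are scaffold proteins linked to a ubiquitin ligase complex, and Ranbp6 (0.08 ± 0.12) is a relative of the importin Ipo5. The probes of Ranbp17 and Ranbp3l were not detected on any array.

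**Figure D3:**
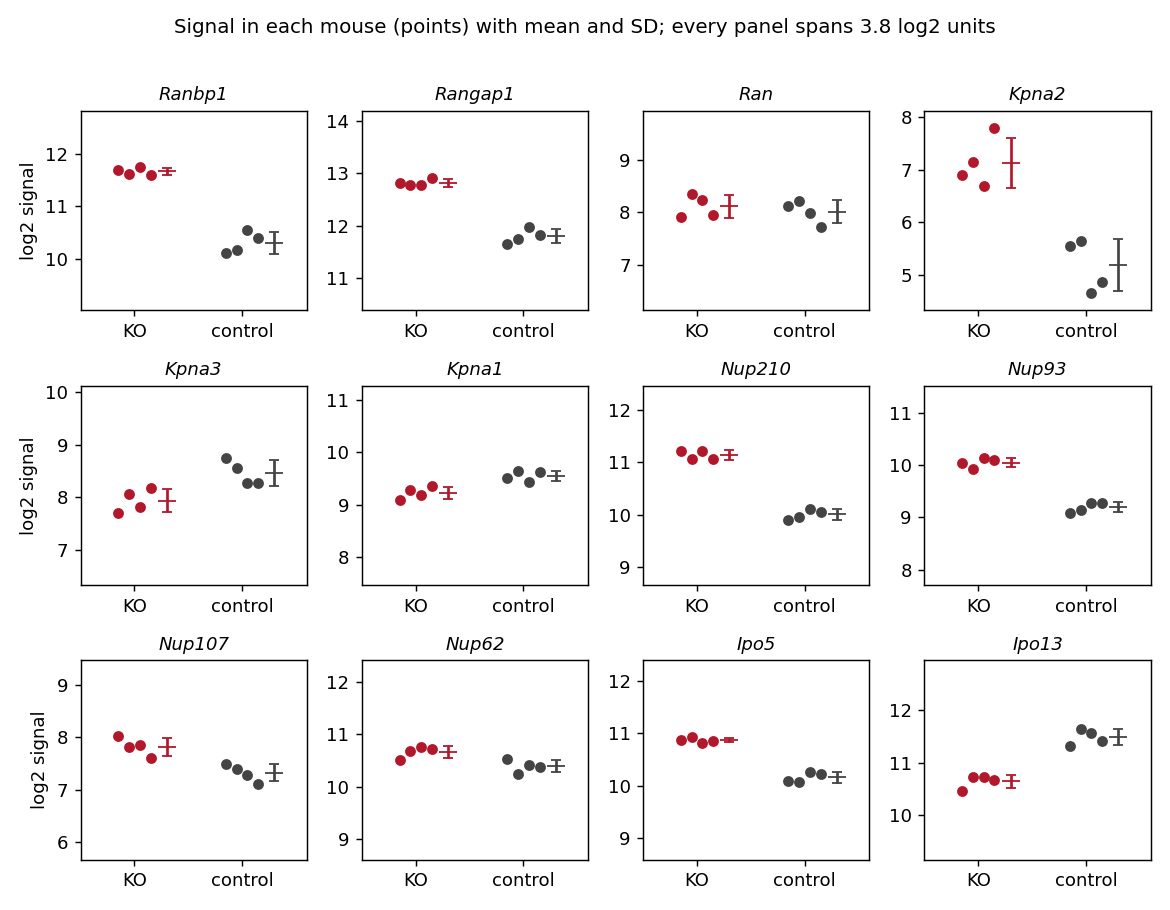
Log2 signal (y axis) of selected pore and transport genes in each KO mouse and each control mouse; points are single mice, and the dash and bar beside them are the mean and SD of the 4 mice of a genotype. KO points lie above all control points for Rangap1 and Ranbp1, below them for Ipo13, and among them for Ran.

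Importin alpha proteins are the adaptors that recognise the classical nuclear localization signal and bind importin beta. Kpna2, the subtype best known from proliferating and stem cells, gave 6.90, 7.15, 6.69 and 7.79 in the KO mice and 5.55, 5.64, 4.65 and 4.86 in the control mice. It was detected on 4 KO and 2 control arrays, and the lowest KO mouse lay above the highest control mouse. The rise of 1.96 ± 0.28 (3.89-fold, adjusted p = 0.000202) was the largest among the 38 genes in background-corrected values. Since 2 control values were at background, its size and rank are approximate. In the authors' normalized values it was 2.44, and without background correction 0.77, below Ranbp1 (1.28), Nup210 (1.05) and Rangap1 (0.99).

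Other importin alpha genes changed in the opposite direction. Kpna1 gave 9.09, 9.27, 9.19 and 9.36 in the KO mice and 9.50, 9.63, 9.42 and 9.62 in the control mice. Kpna3 gave 7.70, 8.06, 7.81 and 8.18 in the KO mice and 8.76, 8.56, 8.27 and 8.27 in the control mice. In both genes every KO mouse lay below every control mouse, but by a narrow margin. Kpna1 fell by 0.32 on the log2 scale (SE 0.08, adjusted p = 0.00864) and Kpna3 fell by 0.53 (SE 0.14, adjusted p = 0.00983). Kpna6, with a change of 0.24 ± 0.18, missed the threshold (adjusted p = 0.266), and the probes of Kpna4 and Kpna7 were not detected on any array. Thus 1 of 4 tested importin alpha genes was higher and 2 were lower, against 29.4% and 34.4% of all tested genes.

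Among the importin beta family, Ipo5, which imports ribosomal proteins and core histones, gave 10.87, 10.92, 10.82 and 10.85 in the KO mice and 10.08, 10.06, 10.26 and 10.23 in the control mice. Tnpo2, a transportin that imports RNA-binding proteins, gave 7.98, 7.92, 7.76 and 7.78 in the KO mice and 7.14, 7.01, 7.13 and 7.39 in the control mice. All KO mice exceeded all control mice in both genes. Ipo5 rose by 0.71 ± 0.07 (1.63-fold, adjusted p = 1.96e-05) and Tnpo2 by 0.69 ± 0.10 (1.62-fold, adjusted p = 0.000171). Without background correction the rise of Tnpo2 was 0.42.

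Ipo13, a carrier that works in both directions and takes the SUMO-conjugating enzyme UBC9 into the nucleus, went the other way. It gave 10.46, 10.72, 10.72 and 10.67 in the KO mice and 11.31, 11.64, 11.57 and 11.41 in the control mice. The groups lay far apart, and this was the largest decrease among the 38 genes (−0.84 ± 0.10, 0.56-fold, adjusted p = 4.48e-05). Kpnb1 (importin beta 1), the partner of the importin alpha adaptors, gave 9.62, 9.56, 9.65 and 10.06 in the KO mice and 9.69, 9.52, 9.58 and 9.51 in the control mice. KO mouse 4 was the highest and the other 3 KO mice lay within the control range. Its change of 0.15 ± 0.11 did not pass (adjusted p = 0.288, 95% confidence interval −0.11 to 0.40), nor did that of Ipo4 (−0.04 ± 0.10, adjusted p = 0.721). The probes of Ipo7 were not detected on any array, and those of Tnpo1 and Tnpo3 were detected on too few arrays to be tested.

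Exportins carry cargo out of the nucleus together with RanGTP, and 3 of the 4 tested were higher. Without Xpo4, whose brightest probe was detected in KO mice alone, 2 of 3 were higher, against 29.4% of all tested genes. Xpo5, the exporter of microRNA precursors, gave 8.04, 8.08, 8.12 and 8.23 in the KO mice and 7.34, 7.37, 7.74 and 7.54 in the control mice. It rose by 0.62 ± 0.10 (1.54-fold, adjusted p = 0.000451) with no overlap, and by 0.41 without background correction. Xpo4, which exports the translation factor eIF5A, gave 5.99, 5.82, 6.0 and 5.98 in the KO mice and 4.95, 4.67, 4.62 and 5.09 in the control mice at its brightest probe. All KO arrays and 0 control arrays were above background, so the control level has only an upper bound, and the bound is at least 1.76-fold higher in KO skin. The adjusted p of the fit was 1.89e-05, but the probe passed the detection filter only through the KO mice, where it is bright, and could not be tested when any KO mouse was left out. This bound sets the KO mean against the higher of the lowest detected signal and the probe's own signal on each control array. The other tested probe of Xpo4, detected on 3 KO and 2 control arrays, did not pass (0.41, adjusted p = 0.172).

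Xpo7, a broad-specificity exportin, gave 7.74, 7.20, 7.32 and 7.51 in the KO mice and 6.97, 7.20, 7.12 and 6.92 in the control mice. KO mouse 2 equalled control mouse 2, and the rise of 0.39 ± 0.12 (adjusted p = 0.0199) did not survive leaving out control mouse 4 (0.35, adjusted p = 0.0539), leaving out control mice 1 and 3 together (0.38, adjusted p = 0.0859), or a replicate block (0.39, adjusted p = 0.0511). Without background correction it was 0.22. Xpo6, the exporter of actin, changed by 0.06 ± 0.14 (adjusted p = 0.721). Xpo1 (CRM1), the main exporter of proteins with a leucine-rich signal, could not be compared: of its probes, 0 KO arrays and 1 control array were above background. A signal at background gives no level for this gene.

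The Y complex, which forms the outer rings of the pore scaffold and also assembles pores after mitosis, rose in 6 of its 7 genes on the array, all of them tested (median 0.50). Over all tested genes, 29.4% were called higher. Nup37 gave 6.96, 7.18, 6.88 and 6.85 in the KO mice and 6.07, 5.98, 5.75 and 6.20 in the control mice. Nup43 gave 9.80, 9.83, 9.77 and 9.65 in the KO mice and 8.92, 8.78, 8.77 and 8.97 in the control mice. Both encode propeller subunits on the arms of the complex, and in both every KO mouse lay well above the control range. Nup37 rose by 0.96 ± 0.11 (1.95-fold, adjusted p = 5.39e-05) and Nup43 by 0.90 ± 0.08 (1.87-fold, adjusted p = 6.19e-06). Without background correction the rise of Nup37 was 0.41.

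Nup107, in the stem of the Y complex, gave 8.02, 7.81, 7.86 and 7.61 in the KO mice and 7.50, 7.40, 7.28 and 7.12 in the control mice. The lowest KO mouse lay just above the highest control mouse, and the rise was 0.50 ± 0.11 (1.41-fold, adjusted p = 0.00322), or 0.31 without background correction. Nup160 rose by 0.51 ± 0.08 (adjusted p = 0.000338) and Nup133, which joins Nup107 at the tip of the stem, by 0.33 ± 0.06 (adjusted p = 0.00129) at its brightest probe. Its other tested probes changed by 0.31 (adjusted p = 0.0767) and 0.12 (adjusted p = 0.359) and did not pass. Seh1l, shared with a nutrient-sensing complex at the lysosome, rose by 0.37 ± 0.07 (adjusted p = 0.00106), and its dimmer probe by 0.85 ± 0.11. Nup85, the direct partner of Seh1l, gave 10.00, 9.98, 9.79 and 9.94 in the KO mice and 9.75, 9.70, 9.88 and 9.67 in the control mice. The groups overlapped through KO mouse 3 and control mouse 3, and its change of 0.17 ± 0.08 did not pass (adjusted p = 0.0778). Without control mouse 3 it passed (0.22, adjusted p = 0.0444), as it did without KO mouse 3 (0.22, adjusted p = 0.0376).

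In the inner ring, Nup93, which anchors the central channel to the scaffold, gave 10.04, 9.92, 10.13 and 10.09 in the KO mice and 9.09, 9.15, 9.27 and 9.28 in the control mice. The rise of 0.85 ± 0.08 (1.80-fold, adjusted p = 9.88e-06) exceeded the spread within either genotype. Nup155, which contacts the pore membrane, rose by 0.56 ± 0.10 (adjusted p = 0.000882), with 7.57 to 7.90 in the KO mice and 6.92 to 7.23 in the control mice, or by 0.33 without background correction. Nup188 was not detected on any array. Nup210 was the one membrane-spanning nucleoporin of the rule with a probe on the array. It gave 11.22, 11.07, 11.22 and 11.06 in the KO mice and 9.89, 9.96, 10.11 and 10.06 in the control mice. It is a glycoprotein whose bulk lies in the lumen of the nuclear envelope. The change, 1.14 ± 0.08 (2.20-fold, adjusted p = 1.47e-06), had the smallest adjusted p of all 38 genes.

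The FG proteins of the central channel, Nup62, Nup54 and Nupl1 (Nup58), bind each other in a fixed complex, and all 3 rose, though by unequal amounts at their probes. Nup54 gave 6.33, 6.53, 6.26 and 6.19 in the KO mice and 5.52, 5.21, 5.37 and 5.43 in the control mice. Nup62 gave 10.51, 10.68, 10.75 and 10.71 in the KO mice and 10.53, 10.25, 10.42 and 10.37 in the control mice. Without background correction the rise of Nup54 was 0.31. The groups were apart for Nup54 and overlapped for Nup62, where KO mouse 1 lay below control mouse 1. Nup54 rose by 0.95 ± 0.10 (adjusted p = 2.32e-05), Nupl1 by 0.59 ± 0.07 (adjusted p = 4.31e-05) and Nup62 by 0.27 ± 0.09 (adjusted p = 0.0203). The call of Nup62 was lost without control mouse 2 (0.22, adjusted p = 0.0539), without KO mouse 3 (0.24, adjusted p = 0.0538) and with a replicate block (0.27, adjusted p = 0.0545).

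At the cytoplasmic face, where messenger RNA leaves the pore, 1 of the 5 tested genes passed, against 63.8% of all tested genes. Rae1, an mRNA export factor that also acts at the mitotic spindle, gave 10.34, 10.18, 10.28 and 10.19 in the KO mice and 10.04, 9.87, 9.98 and 9.95 in the control mice. It rose by 0.29 ± 0.07 (1.22-fold, adjusted p = 0.00565) with no overlap. Nup98, the FG protein that holds Rae1, gave 8.03, 7.95, 8.03 and 7.94 in the KO mice and 7.82, 7.91, 7.78 and 7.88 in the control mice. Although every KO mouse lay above every control mouse, the change of 0.14 ± 0.07 did not pass (adjusted p = 0.0998, 95% confidence interval −0.01 to 0.29). Nupl2, which binds the export factor Gle1, changed by 0.15 ± 0.07 (adjusted p = 0.101), and Ranbp2, the large filament protein that binds RanGAP1, by −0.19 ± 0.20 (adjusted p = 0.426). With the methods' t-test, Nup98 (adjusted p = 0.0248) and Nupl2 (adjusted p = 0.0498) passed.

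Nup88, a filament anchor at the cytoplasmic face, gave 11.41, 11.45, 11.47 and 11.48 in the KO mice and 11.41, 11.40, 11.27 and 11.36 in the control mice at its brightest probe (0.09 ± 0.06, adjusted p = 0.234). The lowest KO mouse and the highest control mouse were equal to 2 decimals. Another of its probes rose by 0.70 ± 0.10 (adjusted p = 0.000151; 0.39 without background correction), and the remaining tested probes changed by 0.33 and −0.08 and did not pass. The probes of this gene thus gave different answers, and which transcript each one matches was not analysed here. On the nuclear side, Nup50, a basket protein that helps free importin alpha from its cargo, gave 6.65, 6.92, 6.74 and 6.97 in the KO mice and 6.42, 6.53, 6.23 and 6.58 in the control mice. It rose by 0.38 ± 0.10 (adjusted p = 0.00986) at this probe and by 0.92 ± 0.10 (adjusted p = 4.27e-05) at another, with 0.17 and 0.40 at these probes without background correction. Without control mice 1 and 3 the change at the brightest probe was 0.27 and did not pass (adjusted p = 0.0854). The single probe of Nup153, the basket anchor, was not detected on any array.

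**Figure D4:**
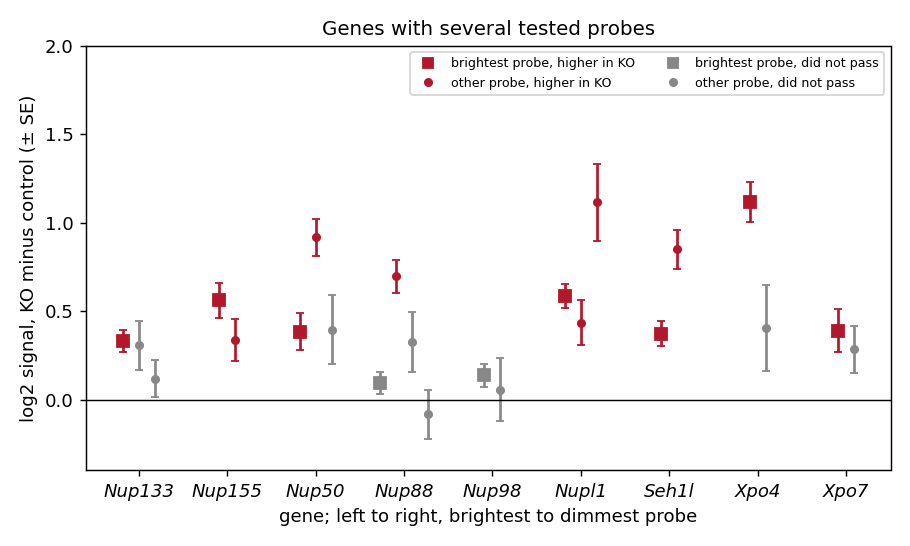
Log2 change, KO minus control (y axis), of every tested probe of the 9 genes with several tested probes (x axis). Bars are the SE of the fit, with 4 mice per genotype. No gene had probes called in opposite directions. The probes of Nup88, Nup50, Nupl1, Seh1l and Xpo4, among others, lie apart by more than their SE.

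Of the 9 genes with several tested probes, 0 had 1 probe called higher and another called lower, which was the case for 92 of 2774 such genes over the whole array. In Nup155, Nupl1 and Seh1l every tested probe was called higher. The size of the change differed between probes of a gene, as for Nupl1 with 0.59, 0.44 and 1.12 (0.52, 0.30 and 0.41 without background correction). The dimmer Nup155 probe was detected on 3 KO arrays and 1 control array, so it passed the detection filter mainly through the KO mice. Its call (0.34, adjusted p = 0.0352) was lost in 7 of 11 alternatives. These were leaving out control mouse 2 (0.26, adjusted p = 0.0889) or control mouse 4 (0.34, adjusted p = 0.0645), no background correction (0.10, adjusted p = 0.154), scaling to a common median (0.28, adjusted p = 0.0731), no detection filter (adjusted p = 0.0512), a variance trend with robust estimation (adjusted p = 0.0986) and the methods' t-test (adjusted p = 0.0705). That of the Nupl1 probe with 0.44 was lost without control mice 1 and 3 (0.36, adjusted p = 0.106).

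In total 19 member probes were not tested. Of these, 14 belonged to the 10 genes without any tested probe, and their signals lay between 4.34 and 5.51 in all mice. The other 5 belonged to genes measured by another probe. Nothing can be said of a change in these 10 genes, which include Xpo1, Nup153, Kpna4, Ipo7 and Tnpo1.

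Genes of the same pathway outside the naming rule were also examined. For comparison, 29.4% of all tested genes were called higher and 34.4% lower, 63.8% in all. Of 6 further pore genes, 3 were higher and 0 lower (median 0.35), led by the membrane protein Ndc1 (1.06 ± 0.16, adjusted p = 0.000248) and by Aaas (0.61 ± 0.08, adjusted p = 0.000153), the pore protein mutated in human triple A syndrome. Of 6 further carriers and Ran regulators, 3 were higher and 0 lower (median 0.23), with Rcc1 and the snRNP importer adaptor Snupn (0.26, adjusted p = 0.0250) ahead. Cse1l, the exportin that returns importin alpha to the cytoplasm, missed the threshold with a change of 0.24 (adjusted p = 0.0614). Of 13 tested genes of mRNA export, 7 were higher and 0 lower (median 0.38). The largest changes there were in Nxt1, a subunit of the general mRNA export receptor (1.26 ± 0.09, adjusted p = 2.00e-06), and Alyref, an adaptor that loads mRNA onto that receptor (0.91 ± 0.07, adjusted p = 4.13e-06).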

How the data were processed

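Total RNA of whole back skin from 4 KO and 4 control mice was hybridized, 1 mouse per array, to Illumina mouse bead arrays. The authors deposited the mean bead intensity of each probe, without background subtraction or scaling, and, per the file headers, a detection p-value against negative control beads. GenomeStudio 2011.1 is named in the submitters' notes on processing. A further deposited table of the authors holds background-subtracted intensities that share quantiles across arrays (median 39.1 on each). Their normalization method is not stated in those notes or in the labels, and they served as an alternative, with values raised to a floor of 16 before log2.

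Raw intensities were processed in R 4.3.3 by the neqc function of limma 3.58.1, which corrects background from the detection p-values, adds an offset of 16 and quantile normalizes. The offset pulls changes of dim probes toward 0. Probes detected (p below 0.05) on at least 4 of 8 arrays were fitted with lmFit and eBayes on genotype, over 8 mice, without covariates; adjustment of p-values over all tested probes was by Benjamini-Hochberg with a threshold of 0.05. The fit was tested on simulated data. Scan dates and chip positions were not analysed here.

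Probes were named from the platform annotation (23978 of 25697 with 1 symbol, 1719 with none) and through RefSeq gene IDs of GRCm38.p6 (23962 matched). Of 59 genes listed by role, 11 had no probe on the array: Nup205, Nup35, Nup210l, Nup214, Tpr, Kpna5, Ipo8, Ipo9, Ipo11, Xpot and Ranbp3. Every gene of the rule could be named. Values per mouse are given for the gene with the largest called change in each direction of each role, where the groups did not overlap, and for Ran, Rangap1, Ranbp1, Kpna2, Kpnb1, Xpo1, Nup98, Nup62, Nup107, Nup93, Nup153, Nup210 and Tpr where measured; a few others were added. Genes outside the rule came from lists of pore, transport and mRNA export genes, and from marker lists of skin cell types. The members and lists were chosen with earlier results of these data known, so they are not independent of them.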

Additional observations from a re-analysis of the deposited data

Results flagged for a closer look

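In each genotype the lowest or highest mouse of each tested probe was compared with its neighbour, as a share of the group's range. Of 104 such groups of 4 mice, 5 had a gap above Dixon's 95% critical value, and chance alone gives about 1 in 20. A second Nupl1 probe read 8.54 in KO mouse 4 and 8.26 to 8.30 in the other KO mice. A second Nup98 probe read 7.19 in KO mouse 2 and 6.68 to 6.76 in the others. The brightest Xpo4 probe read 5.82 in KO mouse 2 and 5.98 or more in the others, still above every control mouse. Another Nup50 probe read 5.77 in KO mouse 4 and 6.60 to 6.66 in the others, and its change of 0.40 (adjusted p = 0.105) became 0.61 (adjusted p = 0.0013) without that mouse. In the control group, a second Xpo7 probe read 5.69 in mouse 4 and 6.09 to 6.13 in the other control mice.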

How the results depend on the processing

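Between 18 and 24 member genes were higher and 3 were lower in every alternative that counted genes, the extremes being the dimmest probe of each gene and the methods' t-test. With adjusted p-values, the counts of member probes ran between 24 and 29 higher, with 3 lower. Leaving out single mice gave 26 to 29 higher probes, 21 to 23 higher genes and 8794 to 8986 calls over all probes, against 9473 with all mice. Without control mice 1 and 3, whose hair markers were higher, 20 genes were higher. The methods' t-test called 32 member probes higher and 3 lower at the methods' general threshold (unadjusted p below 0.05), and 29 and 3 after Benjamini-Hochberg adjustment. At the stricter threshold that the methods give for the arrays (unadjusted p below 0.005), an alternative chosen after seeing the data, 21 were higher, 1 was lower and 6977 probes were called in all.

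The replicate number was added as a block because the labels number the mice of both genotypes alike. The deviations of same-numbered mice correlated at −0.107, 0.01, 0.059 and −0.088, which gave no sign of pairing by number. Such correlations cannot exclude a weak pairing. With the replicate block, 27 member probes and 20 genes were higher, 3 were lower, and 9192 probes were called in all.

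No called probe changed direction in any of the 17 alternatives that give single probes a value; 10 values of probes without a call changed sign, those of Nup88, Nup98, Xpo6, Ipo4, Ranbp6 and Ranbp9. Without background correction, the changes of 10 of the 25 called genes were smaller by over 1.5 times, namely Kpna2, Nup54, Nup37, Nup107, Nup155, Nup50, Tnpo2, Xpo5, Xpo7 and Xpo4 (0.34). When detection was required on all 8 arrays, Kpna2 and Xpo4 could not be tested. The number of mice limits the precision, and the markers of several cell types moved with genotype in every mouse.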
